A study of Mus musculus with 3 samples.

Results

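The 10 genes described here, Atf6, Ern1, Eif2ak3, Xbp1, Atf4, Ddit3, Hspa5, Pdia4, Hsp90b1 and Herpud1, are core genes of the unfolded protein response (UPR). They were chosen by name for their known role, as 10 of 22359 protein-coding genes, with earlier results of these data known. Every open chromatin peak over each gene body and the 10 kb on either side was collected. ATAC-seq, in which a transposase cuts and tags DNA where chromatin is open, had been performed on mouse islet cells dissociated with Accutase. The 3 libraries, all of the strain labeled C5LBl6, came from a wild type (WT) group, a Taf4 KO group at 1 week and a Taf4 KO group at 5 weeks. Taf4 is a subunit of TFIID, the general factor that binds core promoters. As the study's methods describe the animals, floxed Taf4 alleles were inactivated in adults by tamoxifen, given on 3 consecutive days, through an Ins1-driven Cre-ERT2 recombinase, and the Taf4+/+ controls carried the same driver and received the same drug. The Ins1 promoter directs the recombination to beta cells, so a whole Taf4 KO islet also holds cells of other types in which the driver is not active. How many animals were pooled for a library was not given in the sources used here. With 1 library per group, no difference described below can be weighed against the variation from animal to animal, and each is a difference between libraries. In whole islets, fewer cells of a type and less open chromatin per cell cannot be told apart.

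The UPR is the answer of a cell to unfolded proteins in the endoplasmic reticulum (ER). It starts from 3 sensors in the ER membrane: PERK, encoded by Eif2ak3, which slows translation by phosphorylating eIF2alpha; IRE1, encoded by Ern1, which splices the Xbp1 messenger RNA; and ATF6, which is cut in the Golgi to release a transcription factor. Cut ATF6 and the factors made downstream, XBP1, ATF4 and CHOP (Ddit3), together raise genes of the response, among them ER chaperones and degradation machinery. CHOP promotes cell death when stress persists. Beta cells make proinsulin in large amounts and depend on this response.

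Each peak is given by its position on mm9, its width, its fold over the local background and its −log10 q, which measures how far the peak stood out from that background. Because −log10 q depends on depth, each peak was also given its percentile by −log10 q in its own list (the percent of peaks that it equals or outranks). A gene was called when a peak overlapped the window from 1000 bp upstream to 100 bp downstream of a start of any of its protein-coding transcripts.

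All 10 genes had a promoter peak in WT islets and at 5 weeks, and 8 had one at 1 week, where the sensors Atf6 and Ern1 had none. Of all protein-coding genes, 59.0% were called in WT and 55.9% and 65.6% at 1 and 5 weeks. Among genes called in WT, 14.5% were not called at 1 week and 1.89% were not called at 5 weeks, beside 2 of 10 and 0 of 10 here. All 10 genes had a WT −log10 q at least that of Atf6, the lowest of them. Of the 8548 genes with such a value, 7.28% were not called at 1 week and 0.0936% at 5 weeks. This limit was set with the values in view, and 10 genes are too few to tell these shares apart. Of the 8 genes called in both, 3 had a lower fold at 1 week than in WT, against 83.3% of all genes called in both lists. Their median fold ratio to WT was 1.05, against 0.813 for all such genes. At 5 weeks, 7 of 10 had a lower fold, against 76.6%, and the median ratio was 0.952, against 0.903.

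**Figure D1:**
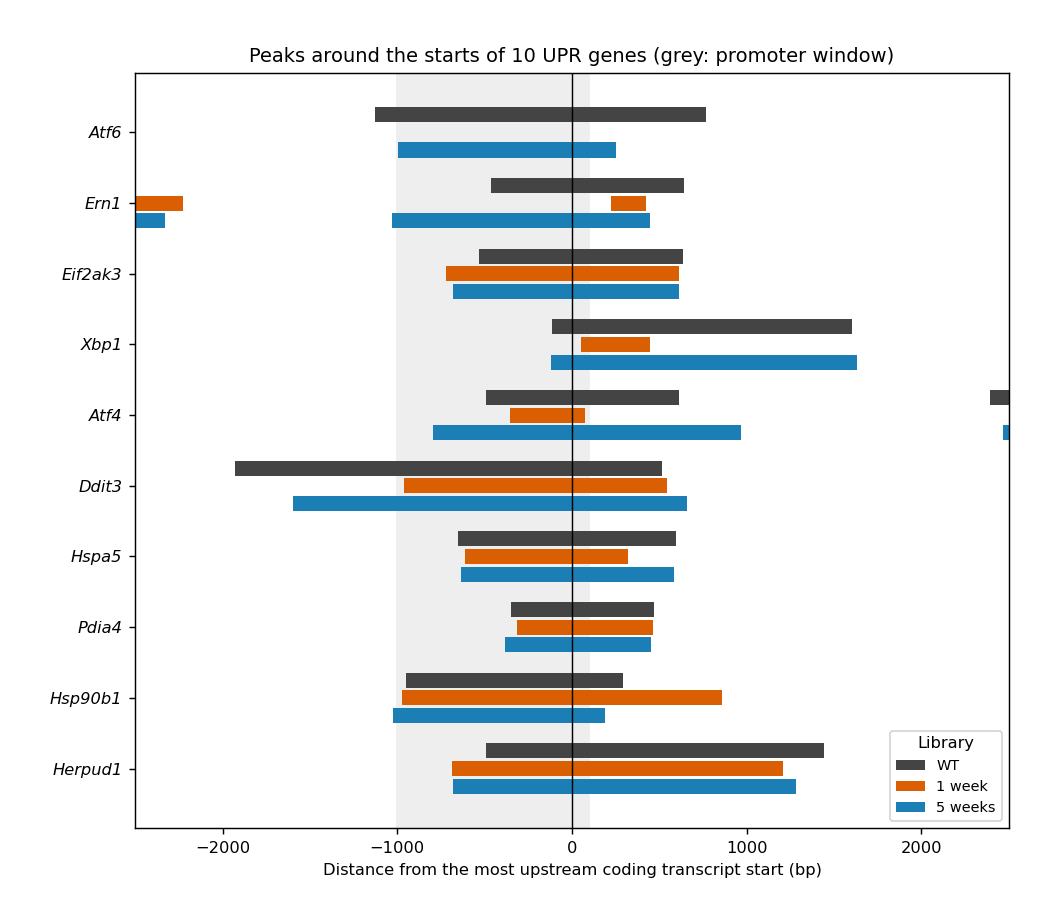
Peaks near the most upstream protein-coding transcript start of the 10 genes, in bp, with 1 bar per peak and 1 color per library. Grey marks the promoter window of that start. Only Atf6 and Ern1 lack a 1 week bar in the window, and the 1 week bars of Xbp1 and Atf4 are the shortest promoter bars of their genes.

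The promoter of Ern1 is shown as that of a sensor not called at 1 week, and no letters are in capitals because none of the 4 motifs described below was found in it. The sequence was read from NCBIM37, the same build as mm9, 5′ to 3′ along the gene, as 300 bases that begin 250 bases before the start. The stretch is chr11:106349101-106349400 on the minus strand, with 62.3% GC and 18 CpG dinucleotides.
Ern1: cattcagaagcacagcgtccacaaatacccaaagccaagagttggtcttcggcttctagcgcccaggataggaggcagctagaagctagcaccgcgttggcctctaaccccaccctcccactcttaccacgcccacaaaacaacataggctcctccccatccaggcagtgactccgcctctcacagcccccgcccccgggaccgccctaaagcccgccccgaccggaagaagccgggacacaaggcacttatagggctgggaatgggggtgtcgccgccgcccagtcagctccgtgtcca

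Atf6 (ENSMUSG00000026663) spans 172634588 to 172797902 on the minus strand of chromosome 1. Its WT promoter peak ran from 172797134 to 172799030, 1897 bp over the start, with a fold of 3.73 and 9.01 for the −log10 q, at percentile 77.6. No 1 week peak touched it. At 5 weeks a peak of 1248 bp stood there with a fold of 3.02 and 6.54 for the −log10 q, at percentile 77.2. The percentile was thus close to that in WT, although the rank was 13621 in the WT list and 34583 in the longer 5 week list. The peak was narrower at 5 weeks, and its fold was 0.810 times the WT fold. Among the 8548 genes whose WT promoter peak had a −log10 q at least as high, 7.28% were not called at 1 week and 0.0936% at 5 weeks. The Atf6 promoter was poor in G and C: its 1101 bp window held 42.3% GC, at the 18.4 percentile of all promoters, while the other 9 windows lay between the 41.0 and 84.6 percentiles.

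Ern1 (ENSMUSG00000020715) is a minus strand gene at 106255964 to 106349166 of chromosome 11. In WT its promoter peak covered 106348509 to 106349612, a width of 1104 bp, with a fold of 4.53 and 17.1 for the −log10 q, at percentile 92.6. At 5 weeks the peak was 1480 bp wide, with a fold of 3.0 and 9.16 for the −log10 q, at percentile 83.6. That fold was 0.661 times the WT fold, at the 3.61 percentile of the ratios of 12948 genes, the lowest place of any of the 10 genes. At 1 week the window was empty, but a 200 bp peak (fold 2.42, −log10 q 1.98) lay from 106348728 to 106348927, 223 to 422 bp downstream of the start and inside the stretch of the WT peak. Ern1 was therefore called at 1 week when the window was taken from 2000 bp upstream to 500 bp downstream. Of 3807 genes with a WT promoter peak of at least the same −log10 q, 3.47% were not called at 1 week and 0.0525% at 5 weeks.

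Eif2ak3 (ENSMUSG00000031668; chromosome 6, plus strand, 70794509 to 70855239), the sensor that stayed called, had a stronger promoter peak than both others in each list. Its peak was 1170 bp wide in WT, against 1339 bp at 1 week and 1296 bp at 5 weeks. The fold was 5.08 in WT and 4.26 and 4.33 at 1 and 5 weeks, so WT was highest and the later libraries lay close together. The −log10 q was 31.6, 21.8 and 31.6 in the same order. The percentile hardly moved, at 99.4, 99.5 and 99.4, while the rank was 375, 721 and 986 in lists of unlike length.

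The genes differ in the base composition of their surroundings, which moved with the calls at 1 week. When all genes called in WT were split evenly into 5 groups, by the percent of G and C in the 1 Mb that surrounds the start, the share not called at 1 week went from 2.84% in the poorest group through 7.50%, 11.2% and 20.1% to 30.7% in the richest. At 5 weeks it lay between 1.33% and 2.50% in all groups. Atf6, at 45.1% GC, and Ern1, at 45.7%, both fell in the middle group. Hsp90b1, at 44.4%, was in the same group and stayed called, as did Atf4, at 49.2%, and Ddit3, at 48.8%, of the richest group. Among genes of the middle group with a WT −log10 q at least that of Atf6, 4.57% were not called at 1 week, and with one at least that of Ern1, 2.49%; both limits were set after these values were seen. The part of GC content in the loss of the Atf6 and Ern1 calls was not tested.

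**Figure D2:**
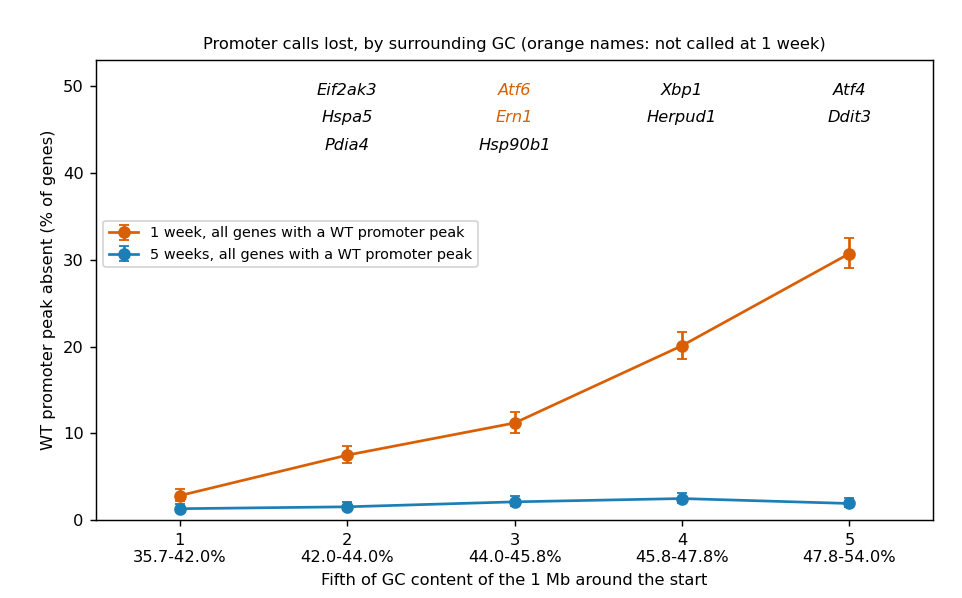
Percent of genes with a WT promoter peak that had none at 1 week (orange) or 5 weeks (blue), by 5 equal groups of the GC content of the surrounding 1 Mb, with the GC range of each group below. Bars are Wilson 95% intervals for counting error only, and the names show where the 10 genes fall, in orange where not called at 1 week. The 1 week line goes from 2.84% to 30.7%, and Atf6 and Ern1 sit in the third group, where it is 11.2%.

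Away from the starts, each sensor gene held an intronic site that was present in every list. The Atf6 peak with the highest fold lay in an intron 126 kb downstream of the start, and not at the promoter. It was 513 bp wide in WT, against 528 bp at 1 week and 639 bp at 5 weeks, with a fold of 6.44, 5.64 and 6.14. Its percentile was 93.5 in WT and higher in both Taf4 KO lists, at 99.0 and 99.3. Ern1 had a like site in an intron, 48.8 kb downstream of the start in WT. Its fold was 6.04 in WT and 5.07 and 5.34 at 1 and 5 weeks, at the 98.9, 97.8 and 99.3 percentiles. Both intronic sites thus stood near the top of the 1 week list, in which the promoters of the same genes were not called. In Eif2ak3, an intronic site 27.8 kb downstream of the start had a fold of 4.92 in WT, against 3.57 at 1 week and 3.57 at 5 weeks.

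Many weaker sensor sites were in only some of the lists. In Ern1, WT peaks at 16.8, 43.9, 47.4, 60.1 and 68.2 kb downstream and 5.80 kb upstream of the start were met by a 5 week peak and by no 1 week peak. The one at 16.8 kb had a fold of 3.81 in WT and 4.51 at 5 weeks. In Eif2ak3 the same held for a site at 36.6 kb, with a fold of 4.10 in WT and 2.89 at 5 weeks. Other sites were listed at 1 week and at 5 weeks but not in WT. Within Atf6 they lay in introns, with a fold of 3.60 at 1 week and 3.60 at 5 weeks 136 kb downstream of the start, 2.39 and 2.64 at 96.1 kb, and 2.68 and 3.51 at 72.7 kb in the 1 week list. In Ern1 an intronic site 30.9 kb downstream in the 1 week list had a fold of 3.35 at 1 week and 3.54 at 5 weeks, and a site 2.42 kb upstream had 3.14 and 2.45. Both Taf4 KO lists hold far more peaks than the WT list, and in them 25.1% of peaks at 1 week and 31.7% at 5 weeks were met by a WT peak. The background recovered from the lists, taken as a rough measure of depth, was 1.76 and 2.57 times the WT value at 1 and 5 weeks, and its part in these sites was not tested.

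**Figure D3:**
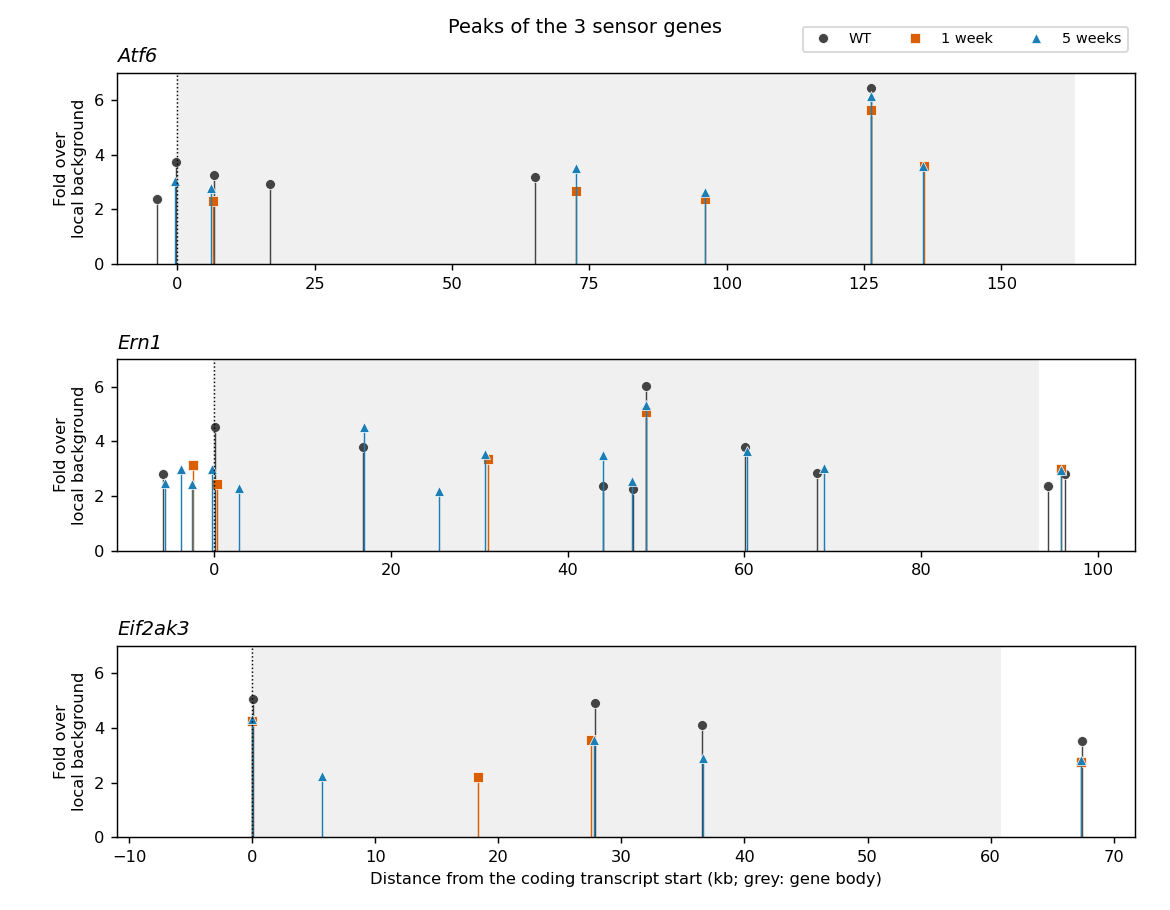
Fold over local background of every peak over Atf6, Ern1 and Eif2ak3 with 10 kb on either side, by distance of the peak centre from the start in kb (circles WT, squares 1 week, triangles 5 weeks; grey, gene body; dotted line, start). The highest markers of Atf6 and Ern1 are the intronic sites at 126 and 48.8 kb, present in all 3 libraries, and no square stands over the Atf6 start.

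The 3 transcription factors kept their promoter peaks in every list. Xbp1 and Atf4 had narrower and higher peaks at 1 week, and Ddit3 had a weaker one. Xbp1 (ENSMUSG00000020484; chromosome 11, plus strand, 5420662 to 5425896) had a promoter peak of 1721 bp in WT and 397 bp and 1754 bp at 1 and 5 weeks. The fold was 3.32, 5.33 and 3.22 and the −log10 q was 10.04, 16.4 and 12.6, in that order. The 1 week library thus stood apart from the other 2 in both width and height, and its peak was at the 98.6 percentile, against 80.5 in WT and 89.2 at 5 weeks. It ran from 53 to 449 bp downstream of the start, inside the WT peak, which reached from 115 bp upstream to 1605 bp downstream. The 1 week fold was 1.60 times the WT fold, at the 99.8 percentile of the ratios of 11287 genes. The only other peak of the Xbp1 window, 13.0 kb downstream of the start, went the other way at 1 week, with a fold of 4.27 in WT, against 3.32 at 1 week and 4.76 at 5 weeks.

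Atf4 (ENSMUSG00000042406; chromosome 15, plus strand, 80085614 to 80087970) showed the same shape. Its promoter peak was 1109 bp wide in WT and 428 bp and 1768 bp at 1 and 5 weeks, with a fold of 3.48, 4.97 and 3.26. The −log10 q was nearly the same in all libraries, at 14.1, 14.1 and 14.0, and the percentile was 88.7, 97.7 and 91.0. The 1 week fold was 1.43 times that in WT, at the 99.3 percentile of all ratios. Xbp1 and Atf4 were the 2 of 8 genes whose 1 week peak was at most 50% as wide as in WT, against 15.8% of all genes, and no gene of the 10 was so narrowed at 5 weeks, against 2.39%. This limit on width was set with the values in view. The deposited fold is a mean over the peak, so it moves with where the peak ends. Among all 1781 genes with a peak narrowed in this way, the fold was lower than in WT in 78.8%. The part of width in the folds of Xbp1 and Atf4 was not tested. The neighboring site 9.25 kb downstream in WT, at the promoter of Rps19bp1, had a fold of 4.06 in WT, against 3.24 at 1 week and 5.25 at 5 weeks.

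Ddit3 (ENSMUSG00000025408; chromosome 10, plus strand, 126727830 to 126733344) had the lowest promoter fold of the factors in each list, at 2.75 in WT and 2.61 and 2.80 at 1 and 5 weeks. The −log10 q was 9.30 in WT and 9.54 at 5 weeks but 2.61 at 1 week, where the peak was at the 64.5 percentile, against 78.5 in WT and 84.4 at 5 weeks. The width was 2441, 1501 and 2256 bp. The 1 week call was lost when only peaks with a −log10 q from 3 upward were kept. This peak also covers the promoter of the neighboring gene Mbd6, so the accessibility cannot be assigned to either gene alone.

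The 4 chaperone and degradation genes were called in every list, and 3 of them had a fold at 1 week above that in WT. Hspa5 (ENSMUSG00000026864; chromosome 2, plus strand, 34627490 to 34632051) encodes BiP, the main chaperone of the ER lumen, which also holds the sensors inactive. Its only peak was at the promoter, with a fold of 5.25 in WT, against 6.80 at 1 week and 5.35 at 5 weeks. The 1 week value was the highest promoter fold of any of the 10 genes in any library, and 1.30 times that in WT, at the 98.3 percentile of the ratios. The −log10 q was 31.6, 30.1 and 36.1, the width 1246, 933 and 1215 bp, and the percentile 99.4, 99.9 and 99.7.

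Pdia4 (ENSMUSG00000025823; chromosome 6, minus strand, 47746141 to 47763511), a protein disulfide isomerase that forms and rearranges disulfide bonds, had a promoter fold of 6.38 in WT and 6.71 and 6.73 at 1 and 5 weeks. At 5 weeks its −log10 q of 49.1 ranked 28 of 151725 peaks, against 33.9 in WT and 25.0 at 1 week. The width varied little, from 781 to 836 bp. A second site 24.9 kb downstream of the start had a fold of 5.76 in WT, against 2.37 at 1 week and 3.40 at 5 weeks, so it was highest in WT where the promoter was lowest.

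Hsp90b1 (ENSMUSG00000020048; chromosome 10, minus strand, 86152954 to 86168254), which encodes the ER chaperone GRP94, was the member of this group with a lower fold at 1 week. Its promoter fold was 4.82 in WT and 3.86 and 4.10 at 1 and 5 weeks. The −log10 q was 31.2, 12.8 and 25.6, and the percentile 99.3, 97.0 and 98.3. The peak was widest at 1 week, with 1829 bp, against 1242 bp in WT and 1216 bp at 5 weeks. It also covers the promoter of the gene BC030307. An intronic site 2.94 kb downstream of the start had a fold of 2.99 at 1 week and 3.06 at 5 weeks and no WT peak.

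Herpud1 (ENSMUSG00000031770; chromosome 8, plus strand, 96910338 to 96919277), an ER membrane protein of the degradation machinery, had a promoter fold of 3.50 in WT, against 3.69 at 1 week and 3.46 at 5 weeks. The −log10 q was 14.3, 8.43 and 16.4. Width was nearly the same in all libraries, at 1939, 1896 and 1965 bp, and the percentile went from 89.0 in WT to 92.5 and 93.4. Sites 8.40 kb upstream and 11.1 kb downstream of the start were also in all 3 lists, the first with a fold of 3.49 in WT and 2.91 and 4.76 at 1 and 5 weeks.

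**Figure D4:**
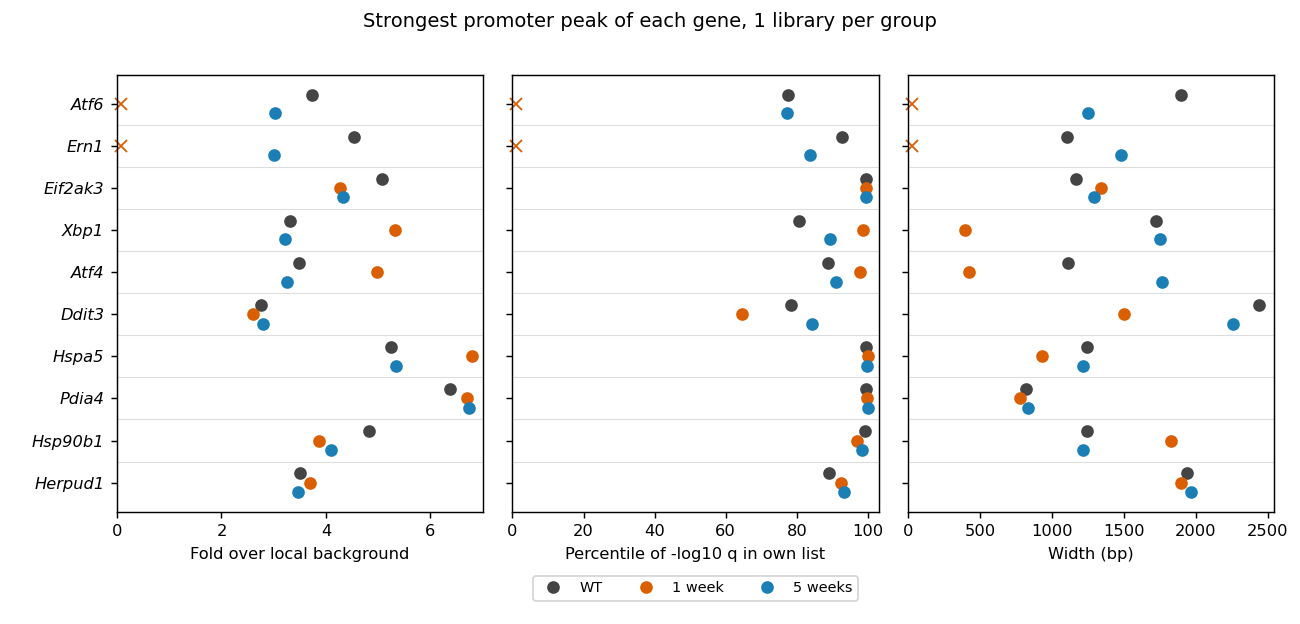
Fold over local background (left), percentile of −log10 q in the list (middle) and width in bp (right) of the strongest promoter peak of each gene, with 1 point per library. Crosses at the left edge mark Atf6 and Ern1, not called at 1 week and without a value. The 1 week points of Xbp1, Atf4 and Hspa5 lie to the right in fold and to the left in width.

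Of the 8 genes called at both, 6 ranked higher at 1 week than in WT by −log10 q in their lists, against 59.9% of all genes, and Ddit3 and Hsp90b1 ranked lower. At 5 weeks 6 of 10 ranked higher, against 80.0%, and 4 lower. Those 4 were Atf6, Ern1, Eif2ak3 and Hsp90b1, although the percentile of Eif2ak3 was 99.4 in both when rounded. These counts depend on what is ranked. Ranked by fold, 0 of 8 genes at 1 week and 1 of 10 at 5 weeks stood lower than in WT, against 30.5% and 14.3% of all genes. That gene was Ern1, at the 83.7 percentile in WT and the 77.7 percentile at 5 weeks, while Atf6 moved from 67.8 to 78.1, Eif2ak3 from 90.4 to 94.2 and Hsp90b1 from 87.6 to 92.5. When the lists were cut to equal numbers of peaks, 5 genes at 1 week and 9 at 5 weeks ranked lower than in WT, against 71.8% and 71.6% of all genes. When they were ranked among promoter peaks only, 4 at 1 week and 6 at 5 weeks were lower, against 49.6% and 38.7%. The ratio of the fold at 5 weeks to that in WT was 0.810 for Atf6, 0.661 for Ern1 and 0.852 for Eif2ak3, between 0.935 and 1.02 for the 3 factors and between 0.851 and 1.05 for the 4 chaperone and degradation genes, beside a median of 0.903 over all genes, 76.6% of which had a lower fold.

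The promoters of 4 of the genes are shown next because they hold exact matches to elements through which the response is known to act. The motifs searched, on both strands of the 1101 bp window, were the ER stress response element (ERSE), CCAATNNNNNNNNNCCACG, through which ATF6 acts together with NF-Y; ERSE-II, ATTGGNCCACG; the XBP1 element TGACGTGG; and the CARE element TGATGNAAT, bound by ATF4 with its partners. N is any base, and no match overlapped another motif. ERSE was found in 0.134% of all promoters, 30 of 22359, and in 2 of the 10 genes: Hspa5, from 67 to 49 bp upstream of the start, and Hsp90b1, with one match from 147 to 129 bp upstream and a second, on the opposite strand, from 42 to 24 bp upstream. ERSE-II was in 0.112% of promoters and in Herpud1, from 61 to 51 bp upstream. CARE was in 3.68% of promoters and in Ddit3, on the opposite strand, from 283 to 275 bp upstream. The XBP1 element, in 1.53% of promoters, was in none of the 10 windows, which says only that these exact letters are not there. Every one of these 5 matches lay inside a promoter peak in all 3 lists. In the sequences below capitals mark the fixed letters of the motif, each stretch is 300 bases of NCBIM37 read 5′ to 3′ along the gene, and the stretches are chr2:34627362-34627661 (plus strand) for Hspa5, chr10:86168205-86168504 (minus strand) for Hsp90b1, chr8:96910088-96910387 (plus strand) for Herpud1 and, ending right before the start, chr10:126727530-126727829 (plus strand) for Ddit3.
Hspa5: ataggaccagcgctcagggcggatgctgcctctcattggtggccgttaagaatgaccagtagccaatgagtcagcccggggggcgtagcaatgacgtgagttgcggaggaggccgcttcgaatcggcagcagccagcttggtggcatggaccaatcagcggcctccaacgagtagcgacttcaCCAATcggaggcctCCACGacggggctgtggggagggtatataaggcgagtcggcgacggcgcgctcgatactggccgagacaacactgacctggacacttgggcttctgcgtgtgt
Hsp90b1: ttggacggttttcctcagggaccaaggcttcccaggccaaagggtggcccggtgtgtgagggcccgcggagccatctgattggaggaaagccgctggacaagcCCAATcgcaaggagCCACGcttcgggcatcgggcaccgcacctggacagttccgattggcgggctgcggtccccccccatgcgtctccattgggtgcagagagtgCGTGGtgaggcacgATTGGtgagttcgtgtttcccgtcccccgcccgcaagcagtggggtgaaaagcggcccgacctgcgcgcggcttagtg
Herpud1: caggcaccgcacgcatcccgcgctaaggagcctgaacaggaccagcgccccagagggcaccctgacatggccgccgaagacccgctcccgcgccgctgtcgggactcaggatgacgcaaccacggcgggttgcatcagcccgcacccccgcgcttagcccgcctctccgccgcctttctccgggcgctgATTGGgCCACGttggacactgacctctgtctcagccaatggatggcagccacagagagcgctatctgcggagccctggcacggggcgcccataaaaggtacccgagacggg
Ddit3: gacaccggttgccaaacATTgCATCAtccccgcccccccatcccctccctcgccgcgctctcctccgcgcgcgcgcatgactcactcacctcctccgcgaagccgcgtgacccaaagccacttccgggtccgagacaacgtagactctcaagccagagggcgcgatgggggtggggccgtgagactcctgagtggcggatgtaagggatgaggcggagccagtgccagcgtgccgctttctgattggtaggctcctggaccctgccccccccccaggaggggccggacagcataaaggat

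The genes that hold the stress elements did not move together. At 1 week, Hspa5 had a fold of 1.30 times that in WT and Herpud1 1.06 times, while Hsp90b1 had 0.801 times. Only exact matches were counted, so the number of elements in a promoter is not compared with its fold. Over the genome, 55 promoters held an ERSE or ERSE-II, of which 36 were called in WT, against 38 at 1 week and 41 at 5 weeks. With the 3 genes above and their peaks left out, and a WT peak shared by neighboring genes counted once, 22 of the 29 called in both WT and 1 week had a lower fold at 1 week and 7 a higher one, with a median ratio of 0.864. These values lay near the 83.3% and 0.813 of all genes. ERSE or ERSE-II was present in 11 of the 52 other UPR genes described next.

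Over the whole windows, which cover 577 kb, there were 38 WT, 28 1 week and 43 5 week peaks, or 65.9, 48.6 and 74.6 per Mb. The density of the whole lists, 22.9, 56.6 and 57.1 per Mb, was higher at 1 week than in WT, while that of the UPR windows was lower. The sensor windows held 20, 14 and 25 peaks, the factor windows 9, 5 and 8, and the chaperone and degradation windows 9, 9 and 10. At 1 week 5 of the 10 windows held fewer peaks than in WT and 1 held more, against 46.5% and 22.9% of all gene windows with a WT peak. At 5 weeks 2 held fewer and 4 more, against 16.0% and 43.9%. Fewer peaks at 1 week were thus about as frequent as in other genes that were open in WT. The 5 windows were those of Ern1, with 10 peaks in WT and 5 at 1 week, Atf4, with 5 and 2, Atf6, Ddit3 and Pdia4.

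Of the 38 WT peaks in the windows, 21 were met by a peak at 1 week, 55.3% (95% interval 39.7 to 69.9), against 61.9% of all WT peaks. At 5 weeks 31 were met, 81.6% (66.6 to 90.8), against 79.5%. By role, 8 of 20 sensor peaks, 5 of 9 factor peaks and 8 of 9 chaperone and degradation peaks were met at 1 week, and 16 of 20, 7 of 9 and 8 of 9 at 5 weeks. Of the promoter peaks 9 of 10 were met at 1 week, against 85.5% of all WT peaks at promoters, and 10 of 10 at 5 weeks, against 97.5%. Outside promoters 12 of 28, or 42.9% (26.5 to 60.9), were met at 1 week and 21 of 28, or 75.0%, at 5 weeks, against 55.5% and 74.6% of all WT peaks outside promoters. These intervals are Wilson intervals for counting error only. Each covers the background value except that of the sensor peaks, which ends just below the 61.9% of all WT peaks. Seen from the other side, 21 of the 28 peaks at 1 week and 31 of the 43 at 5 weeks were met by a WT peak, or 75.0% and 72.1%, against 25.1% and 31.7% of all peaks of those lists. Outside promoters it was 13 of 20 and 21 of 33, against 19.4% and 25.8%. All 10 windows surround genes called in WT and hold 65.9 WT peaks per Mb, against 22.9 over the genome. The same shares were not computed for windows of other genes called in WT, so the gap is not shown to be particular to these genes.

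The wider response was followed in 52 other UPR genes on 4 lists: folding in the ER, ER-associated degradation, the eIF2alpha arm and regulators of the sensors. All 52 were called in WT and at 5 weeks and 50 at 1 week, against 59.0%, 65.6% and 55.9% of all genes. The 2 of 52 WT calls absent at 1 week stand beside 14.5% of all WT calls. Genes of like WT −log10 q were not compared, and among all genes with at least that of Atf6, 7.28% were absent. The 2 of the 52 not called were Mbtps1, the protease that makes the first cut in ATF6, and Nupr1, a stress-induced chromatin protein. The Mbtps1 promoter peak had a fold of 4.78 in WT, where its −log10 q was 18.2, and 5.25 at 5 weeks, where it was 22.4. For Nupr1 the fold was 3.41 and the −log10 q 7.75 in WT, against 3.71 and 10.6 at 5 weeks. Both genes lie in the GC-richest group of surroundings, at 49.7% and 47.8% GC, where 2 of 15 of these genes and 30.7% of all genes were not called. In the other 4 groups none of them was lost.

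Of the 50 genes called in both, 32 had a lower fold at 1 week than in WT and 18 a higher one, and at 5 weeks 35 of 52 had a lower one. By list, the fold at 1 week was lower in 12 of 16 folding genes, 11 of 14 degradation genes, 5 of 13 genes of the eIF2alpha arm and 4 of 7 sensor regulators, with median ratios of 0.827, 0.864, 1.05 and 0.910. At 5 weeks the counts were 12 of 16, 10 of 14, 6 of 14 and 7 of 8. The eIF2alpha arm, to which Atf4 and Ddit3 belong, thus had the smallest share of lower promoters of the 4 lists at both times, against 83.3% and 76.6% of all genes. The lists also differed in WT promoter fold. It ran from 2.56 to 5.47 in the eIF2alpha arm, 4.19 to 6.72 in the folding genes, 3.89 to 6.21 in the degradation genes and 4.03 to 6.43 in the regulators. Genes of like WT fold were not compared, and the part of WT fold in these shares was not tested. Both comparisons use the same WT library.

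Of each list, at most the 4 genes with the highest WT −log10 q are given here. Picked by their WT value, they do not stand for the direction of change in their lists, for which the counts are given above. Among the folding genes those given were Canx, the membrane chaperone calnexin, P4hb, a protein disulfide isomerase, and Dnajb11 and Dnajc3, which are co-chaperones of BiP. Canx had a promoter fold of 6.72 in WT and 4.58 and 5.29 at 1 and 5 weeks, and P4hb had 5.17, 3.71 and 4.34. For Dnajb11 the fold was 6.30, 5.65 and 5.86 and for Dnajc3 5.51, 4.76 and 4.58. Among the degradation genes, Derl1, which helps to move proteins out of the ER, had 5.94, 5.56 and 4.93 and Sel1l, the partner of the ubiquitin ligase for ER proteins, 6.21, 5.21 and 5.40. Derl2, a relative of Derl1, had 5.62 in WT, against 6.99 at 1 week and 6.32 at 5 weeks, and Edem3, which trims mannose from glycoproteins, had 5.40, 5.62 and 4.83. In the eIF2alpha arm, Chac1, a target of ATF4, had 4.26, 4.68 and 4.35, and Asns, asparagine synthetase, 5.47, 4.05 and 5.48. Ppp1r15b and Eif2s1, which encode a regulator of the eIF2alpha phosphatase and eIF2alpha itself, had 3.83, 3.36 and 3.69, and 4.89, 2.73 and 4.12. Among the regulators, Traf2, which IRE1 recruits, had 6.43, 7.90 and 5.39, Creb3l2, an ER membrane factor related to ATF6, 4.99, 4.47 and 4.33, and Sil1, a nucleotide exchange factor of BiP, 5.94, 2.86 and 4.98.

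The lists differed in ways that touch every gene. They held 60898 WT, 150354 1 week and 151725 5 week peaks, with a median fold of 3.19, 2.40 and 2.24, so that a fold is best compared with the folds of other genes in the same list. The targeted gene itself, Taf4a in the annotation, had a promoter peak in all 3 lists, with a fold of 3.28, 2.17 and 2.94, which does not test the deletion. Beta cell markers were called in 10, 9 and 9 of 10, the missing one being Slc2a2, and alpha cell markers in 4, 5 and 5 of 5, the added one being Gcg. Delta cell markers were called in 1, 2 and 3 of 3, Sst among those added, acinar markers in 1, 1 and 2 of 7, endothelial markers in 2, 2 and 4 of 6 and immune markers in 0, 1 and 1 of 6. Genes with no use in islets, such as those of muscle and retina, were called in 0, 1 and 2 of 6. Of all genes 59.0%, 55.9% and 65.6% were called, and 14.5% and 1.89% of WT calls were absent at 1 and 5 weeks. The WT peak of Slc2a2 was weak, with a −log10 q of 2.15. At 1 and 5 weeks the added peaks had 1.41 and 1.33 for Sst and 4.96 and 7.14 for Gcg. The part of cell composition in the UPR values was not tested.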

How the data were processed

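ATAC-seq peaks of 3 islet libraries, 1 per group, were analyzed. Per the submitters' processing notes and the study's methods, the authors converted reads with bcl2fastq 2.17.1.14, mapped them to mm9 with Bowtie 1.0.0, keeping unique alignments, and called broad peaks with MACS2 2.1.1. A control library, duplicate removal or a shift to the insertion site was not given in the sources used here. For each peak the deposited lists give the fold over background as a ratio, the −log10 p-value and −log10 q-value, each a mean over the peak, and a score, which was not used. Read totals are not in peak lists, so depth is estimated only through the background, recovered from fold and p as its 1st percentile (3.66 reads in WT, 6.45 at 1 week, 9.38 at 5 weeks). The recovery was run on simulated peaks made with the same formula. These did not imitate means over a broad peak, so they do not test how well it holds for these lists.

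Peaks on chromosomes 1 to 19, X and Y were kept, which left out 2 per list. Gene models were the GENCODE annotation of NCBIM37, with 46015 protein-coding starts. Overlap meant at least 1 bp, and the peak with the highest −log10 q stood for a promoter. RefSeq promoters supplied for this work were on another build, so sequences were read from NCBIM37. Groups came from the genotype and time labels. No test was run, since each group had 1 library, and shares were given with Wilson 95% intervals. The members and lists were chosen with earlier results of these data known. All 10 members were named, and of the other UPR genes those whose call differed and up to 4 per list with the highest WT −log10 q. Of the marker lists, hormone genes and genes with differing calls were named, up to 3 per list, and neighbors only where their promoter peak lay in a window. Alternatives were stricter lists, lists of equal number, KO lists scaled to the WT background, other windows, flanks and overlaps, and other ways to rank. Python 3.11.15, pandas 2.3.3, numpy 2.4.6, pysam 0.24.0 and samtools 1.23.1 were used.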

Additional observations from a re-analysis of the deposited data

How the results depend on the processing

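Of 200 promoter calls of the 10 genes recomputed under alternative lists and windows, 197 did not change. The exceptions were all at 1 week: Ern1 was called with the window from 2000 bp upstream to 500 bp downstream, and Ddit3 was not called when the −log10 q had to reach 3 or 5. Under either limit 7 of the 10 genes were called at 1 week. Of all WT promoter calls that met the same limit, 21.3% and 35.9% were absent at 1 week. Absence of the Atf6 promoter peak at 1 week held under each alternative run, but only the wider window could have added a peak. Shorter lists and a narrower window can only remove calls, and a wider window can only add them. Many of the 197 calls could therefore not have changed. The number of peaks in the windows was 25 in WT when the −log10 q had to reach 3 and 22 when it had to reach 5, and 15 at 1 week under the latter limit. Of WT peaks in the windows, 39.5% were met at 1 week when 50% of both peaks had to overlap, and 100% at 5 weeks under either limit on −log10 q. The same shares over all WT peaks were not computed under these settings, so neither value is shown to be particular to these windows. Ranked by fold, 0 genes at 1 week and 1 at 5 weeks were lower than in WT. Ranked among promoter peaks, 4 were lower at 1 week, against 49.6% of all genes, and in lists of equal number 5 at 1 week and 9 at 5 weeks. The cause of these shifts was not tested, beyond fewer peaks entering the stricter lists. In lists of equal number or scaled to the WT background, 20.6% and 20.2% of all WT promoter calls were absent at 1 week and 4.71% and 6.58% at 5 weeks. Counts of genes with a lower fold, the fold ratios and the widths were computed only from the lists as deposited. No paired analysis was possible because each group has 1 library. The recovered background, the only measure of depth here, was lowest in WT. A site listed only in the Taf4 KO lists is therefore not shown to be absent in WT, and the part of depth was not tested. A peak that misses the caller's threshold has no value, so loss cannot be told from a small decrease.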
